A study of Mus musculus with 18 samples.

Results

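Ucp1 and Slc36a2 are marker genes of brown and beige adipocytes, the fat cells that can burn fuel to make heat. Ucp1 encodes uncoupling protein 1, which lets protons back across the inner mitochondrial membrane so that respiration yields heat in place of ATP. Its transcription is known to be driven by cold through beta-adrenergic signals and cyclic AMP. Slc36a2, also called PAT2, encodes a proton-coupled transporter of small amino acids such as glycine, alanine and proline, and is used as a surface marker of brown and beige fat cells. Both were followed here in adipocytes of the 3T3-L1 line, mouse fibroblasts that can be turned into fat cells in culture and that serve as a model of white adipocytes. The cells carried vectors labelled as altering the transcription factor IRF3, or control vectors. IRF3 acts downstream of innate immune receptors, among them Toll-like receptor 4, and switches on type I interferon.

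The members are 2 of the 27473 gene models of the count table, found by their positions on mouse build mm9. Slc36a2 is the gene model uc007iza.1 (chr11:54971970-54998579, minus strand, 10 exons, 3249 exon bases). Ucp1 is uc009mjx.2 (chr8:85814247-85822355, plus strand, 6 exons), the gene model with the most exon bases in the search window. All 1644 of its exon bases lay inside the window, and 0 other gene models had an exon there. Neither member is overlapped by another gene model. The table holds no symbols, so the identities were checked against the exon lengths of the same genes in the GENCODE M21 annotation. For Ucp1 4 of 6 exons had the same length, and its first and last exons were 361 and 600 bases in the table against 357 and 596 in GENCODE. For Slc36a2 8 of 10 exons had the same length.

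Slc36a2 is taken to have been selected on its values under lipopolysaccharide (LPS), which is shed from the outer membrane of bacteria and sensed by Toll-like receptor 4. There an earlier analysis of these data listed it as low in knockdown cells. No record states the choice itself, and if values of the other groups also entered it, the tests of knockdown without LPS and of overexpression are not independent of it. Knockdown under LPS is therefore given as a description with no test, and so are the LPS effects on Slc36a2, which share those libraries. No record gives the values on which Ucp1 was chosen, and its counts were too low for a test in any comparison.

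The 18 libraries are of differentiated 3T3-L1 adipocytes at passage 15, which received lentivirus for 6 days. They form 6 groups of 3: Irf3_2D (labelled as overexpressing Irf3; the labels do not explain 2D) with its control vector EGFP, and a hairpin against Irf3 (shIrf3) or a control hairpin (shLuc), each without and with LPS. A further 6 days of LPS are stated for the knockdown cells. No duration of LPS is stated for shLuc with LPS, so equal exposure of the LPS-treated groups is not given. Whether the cells without LPS were cultured equally long is not given in the sources used here, so LPS and culture time cannot be told apart. The labels do not state that replicates are separate cultures. The p-values therefore speak of the spread among these libraries alone, and that spread may be technical. Total counts ran from 22143302 to 34368259 per library. The mitochondrial chromosome took 14.2% of the counts in shLuc replicate 1, against 2.88% and 5.19% in shLuc replicates 2 and 3. The count table names no gene model, and only the members were located by position. Adipocyte markers and the level of Irf3 itself were not analysed here, so the labelled change of Irf3 was not checked.

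The sequence at which the annotated Slc36a2 transcripts part is shown because it bears on what the deposited gene model counts. Both GENCODE transcripts share their first 946 bases, up to the end of coding exon 7 (99 bases, chr11:55168830-55168928 on GRCm38, minus strand). Slc36a2-201, the protein-coding transcript of 2429 bases, then joins the next exon, whereas Slc36a2-202, a processed transcript without a coding frame in the annotation, reads on into the intron in an exon of 925 bases. The lines give the last 20 shared bases in lower case and the next 20 bases of each transcript in capitals.
Slc36a2-201: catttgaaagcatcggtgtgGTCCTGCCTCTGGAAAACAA
Slc36a2-202: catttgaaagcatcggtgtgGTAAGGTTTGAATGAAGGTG
In the deposited gene model exon 7 has 917 bases, so reads of both forms enter the Slc36a2 count and cannot be told apart. Levels per kilobase below use the deposited 3249 exon bases.

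Ucp1 was close to undetected in every group. The 18 libraries together held 2 Ucp1 counts, 1 in shLuc replicate 2 and 1 in shIrf3 with LPS replicate 3, and the other 16 libraries held 0. Of the 27473 gene models, 7317 (26.6%) had 2 or fewer counts over the 18 libraries, and 5625 had none.

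**Figure D1:**
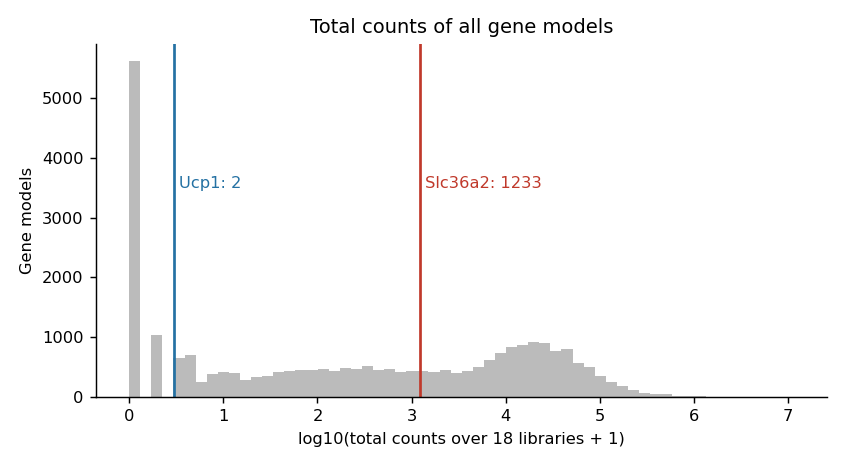
Histogram of the total counts of all 27473 gene models over the 18 libraries, on a log10 axis of count plus 1, with the members as vertical lines. Ucp1, at 2 counts, sits at the left edge beside the gene models with no counts, and Slc36a2, at 1233 counts, lies in the middle of the detected range.

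The pooled Ucp1 level was 0.00403 CPM (counts scaled to library size, with TMM factors), with an exact Poisson 95% interval from 0.000488 to 0.0146 CPM. A library with 0 counts allows a level of up to 0.0941 to 0.145 CPM, taking 3 counts as the floor and depending on its depth. Over the 3 libraries of a group the floor was 0.0330 CPM in shLuc with LPS and 0.0385 CPM in EGFP. These limits cover counting error only. The floor of 3 counts was not reached in any group, so no fold change is given for Ucp1. A difference between groups was not detectable at this depth, for knockdown, for overexpression or for LPS. Ucp1 was removed by the low-count filter in both fits.

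The Ucp1 promoter is given from RefSeq as the 250 bases before the annotated start (chr8:83290098-83290347 on GRCm38.p6, plus strand). It is the stretch just before the point at which the near-absent transcript would begin. Capitals mark the matches to the motifs searched on both strands.
Ucp1 promoter: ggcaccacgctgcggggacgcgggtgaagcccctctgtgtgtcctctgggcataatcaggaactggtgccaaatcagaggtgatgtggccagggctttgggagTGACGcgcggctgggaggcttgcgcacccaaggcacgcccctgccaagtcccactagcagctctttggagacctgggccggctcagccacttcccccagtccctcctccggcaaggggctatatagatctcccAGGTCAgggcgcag
The cyclic AMP core motif TGACG occurred 1 time, beginning 147 bases before the start, and is present in 17.8% of the 32851 promoters of the table cut to the same length. The nuclear receptor core motif AGGTCA occurred 1 time, beginning 14 bases before the start, and is present in 14.0% of promoters. The interferon regulatory factor element GAAANNGAAA occurred 0 times in this window and is present in 2.98% of promoters. The matches found did not overlap.

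Slc36a2 was detected in all 18 libraries, at low to moderate levels. Its counts were 57, 98 and 63 in EGFP replicates 1, 2 and 3, and 41, 13 and 39 in Irf3_2D. In shLuc they were 104, 116 and 126, and in shIrf3 17, 28 and 10. With LPS they were 139, 175 and 152 in shLuc and 19, 16 and 20 in shIrf3. Every library of an altered Irf3 group held fewer raw Slc36a2 counts, not scaled for depth, than every library of its control vector. In CPM, groups did not overlap for 7.38% of gene models tested with Irf3_2D lower. With shIrf3 lower the share was 11.4% without LPS and 16.1% with LPS.

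Scaled for depth, the order of the groups ran from the control hairpin with LPS down to the knockdown cells. The mean level was 5.12 ± 0.386 CPM in shLuc with LPS (SD, n = 3) and 4.10 ± 0.634 CPM in shLuc. EGFP followed at 2.77 ± 0.514 CPM and Irf3_2D at 1.13 ± 0.443 CPM. The lowest means were 0.682 ± 0.125 CPM in shIrf3 with LPS and 0.661 ± 0.267 CPM in shIrf3. The ranges of the highest neighbours in this order, shLuc with LPS and shLuc, overlapped, as did those of Irf3_2D and shIrf3 with LPS and those of shIrf3 with LPS and shIrf3. The control vectors did not overlap, with EGFP at 2.25 to 3.28 CPM and shLuc at 3.51 to 4.77 CPM, as was so for 27.6% of 15083 gene models with EGFP lower.

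**Figure D2:**
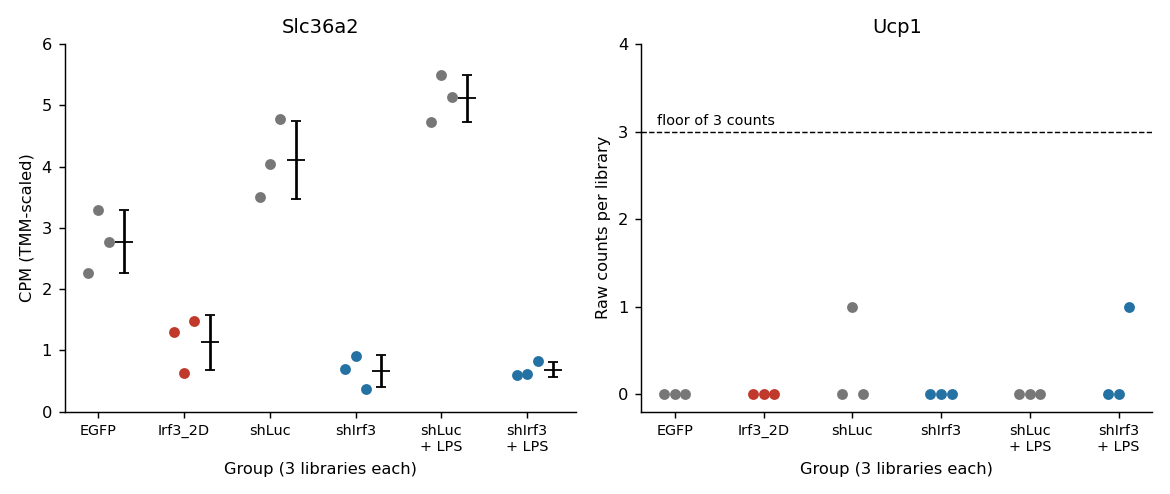
Left, Slc36a2 level in TMM-scaled CPM for each library by group, with the mean and SD of 3 libraries as black bars; right, raw Ucp1 counts for each library, with the floor of 3 counts dashed. The Slc36a2 points of Irf3_2D and of both shIrf3 groups lie below all points of their controls. The same held for 7.38% of gene models tested in Irf3_2D, 11.4% in shIrf3 and 16.1% in shIrf3 with LPS. Ucp1 has 1 count in 2 libraries and 0 in the rest.

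Per kilobase of exon, Slc36a2 lay between 0.204 ± 0.0823 CPM in shIrf3 and 1.57 ± 0.119 CPM in shLuc with LPS (SD, n = 3). It was at or above 45.5% to 51.1% of all gene models in the shIrf3 libraries, and at or above 61.5% to 62.6% in those of shLuc with LPS. These shares include gene models with no counts. On the same measure Ucp1, with 0 counts in shIrf3, stood at 33.2% to 33.9% there. On this scale the ratio of the mean Slc36a2 level to the Ucp1 floor was 9.12 in shIrf3 and 15.0 in Irf3_2D. It was 36.4 in EGFP and 78.4 in shLuc with LPS. These ratios to the floor leave out the counting error of Slc36a2 and are not 95% bounds. In shLuc, where Ucp1 had 1 count, the ratio per kilobase was 175 (95% counting interval 31.2 to 6935), and in shIrf3 with LPS it was 27.8 (4.79 to 1119). Slc36a2 thus lay above Ucp1 in level in all 6 groups. How far above is only loosely bounded, with a lower limit of 4.79 in shIrf3 with LPS. With the lengths of the annotated coding transcripts in place of the deposited exon lengths, the ratios to the floor ran from 12.1 in shIrf3 to 104 in shLuc with LPS.

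Knockdown without LPS asks whether Slc36a2 differs with the hairpin against Irf3, whose effect on Irf3 was not checked, in unstimulated adipocytes. Slc36a2 fell from 3.51, 4.04 and 4.77 CPM in shLuc to 0.703, 0.906 and 0.375 CPM in shIrf3. The highest knockdown library was far below the lowest control library. The log2 fold change was -2.61 ± 0.23 (SE), or 6.11-fold lower, with an edgeR adjusted p of 1.46e-05. Of 14970 gene models tested, 3.91% were called lower in this comparison, and 11.4% had groups that did not overlap with the knockdown lower. Over all 14970, 4 gene models had a more negative log2 fold change. Among the 585 called lower Slc36a2 had the most negative one, against a median of -0.48 for those called and -0.02 for all tested. For knockdown under LPS, the contrast taken to have chosen Slc36a2, 0 of 14970 gene models had a more negative one. The same hairpins were compared there, so the rank without LPS is a description and no separate evidence. With library totals as the only scaling 704 gene models were called higher and 345 lower, against 696 and 585, and Slc36a2 stood at -2.59. Without shLuc replicate 1, the library with 14.2% mitochondrial counts, its log2 fold change was -2.70 (edgeR adjusted p = 1.01e-06). In these bulk samples, fewer cells expressing Slc36a2 and less Slc36a2 RNA per cell cannot be told apart.

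In the LPS-treated cells Slc36a2 differed in the same direction, in the contrast taken to have chosen it. It had 4.72, 5.49 and 5.14 CPM in shLuc with LPS and 0.605, 0.615 and 0.826 CPM in shIrf3 with LPS. The log2 fold change was -2.92 ± 0.23 (SE), or 7.58-fold lower, and 16.1% of the 14970 gene models had groups that did not overlap with the knockdown lower. These values are a description and no separate evidence. The libraries compared for knockdown without LPS are not among them, but the fit of that comparison took its filter, scaling and spread from all 12 libraries of the arm. Fitted from its own 6 libraries alone, knockdown without LPS stood at -2.61 on the log2 scale, with an SE of 0.28 and an adjusted p of 0.00375 from edgeR.

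With and without LPS the Slc36a2 levels overlapped under either hairpin. In control cells the log2 fold change with LPS was 0.33 ± 0.18 (SE), and the highest library without LPS, at 4.77 CPM, was above the lowest with LPS, at 4.72 CPM. In knockdown cells it was 0.02 ± 0.30 (SE), with ranges of 0.375 to 0.906 CPM without and 0.605 to 0.826 CPM with LPS. The difference between the LPS effects was -0.31 ± 0.35 (SE), and was not tested. Each shIrf3 group held 55 Slc36a2 counts over its 3 libraries, which limits the precision of these values.

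**Figure D3:**
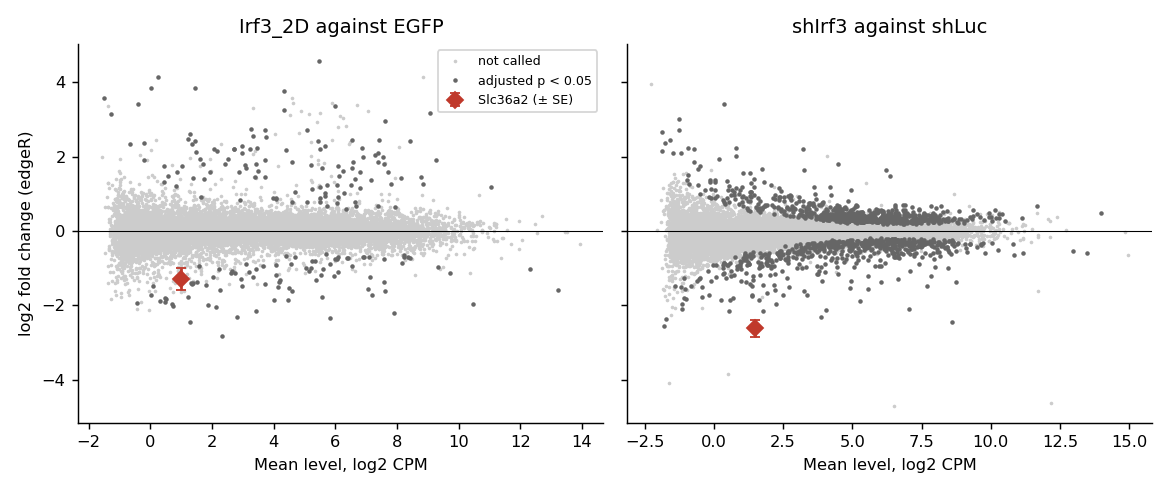
The log2 fold change from edgeR against mean level in log2 CPM for all gene models tested, with those at an adjusted p under 0.05 in dark grey and Slc36a2 as a red diamond with its SE. Slc36a2 lies at -1.28 in Irf3_2D against EGFP, where it was not called, and at -2.61 in shIrf3 against shLuc, below all dark points.

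The overexpression arm asks the same of the vector labelled as raising Irf3, and Slc36a2 was lower there too, without passing the test. It had 2.25, 3.28 and 2.77 CPM in EGFP and 1.29, 0.629 and 1.47 CPM in Irf3_2D. All 3 Irf3_2D libraries lay below all 3 EGFP libraries, and Irf3_2D replicate 2 was the lowest. The log2 fold change was -1.28 ± 0.30 (SE), or 2.44-fold lower, with an edgeR adjusted p of 0.0910. In this comparison 0.639% of 13931 gene models were called lower, and 7.38% had groups that did not overlap with Irf3_2D lower. A more negative log2 fold change was fitted for 81 gene models. The call depended on the fit. With a library left out, the edgeR adjusted p ran from 0.0301 to 0.393, and Slc36a2 was called in 1 of 6 cases. That case was the fit without Irf3_2D replicate 2, at a log2 fold change of -1.04. There 1021 gene models were called, against 202 in the reported fit. DESeq2 gave an adjusted p of 0.0126. Whether the change differs in size between the arms was not tested. The Slc36a2 values thus lay below those of the control vector both with the vector labelled as raising Irf3 and with the hairpin against it.

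**Figure D4:**
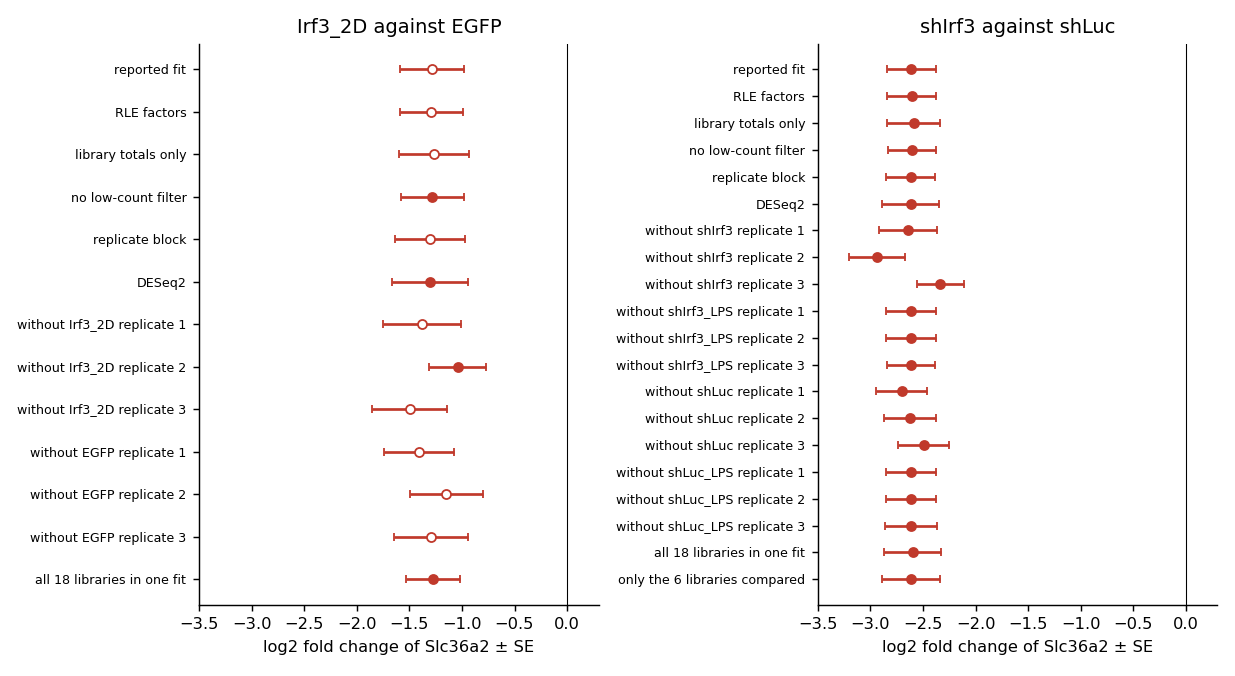
The log2 fold change of Slc36a2 with its SE under each setting, for overexpression (left) and knockdown without LPS (right); filled points have an adjusted p under 0.05. In all settings shown the value stays below 0, all knockdown points are filled, and 4 of the 13 overexpression points are.

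Slc36a2 lies in a cluster of related amino acid transporters, between Slc36a3 and Slc36a1 in the RefSeq annotation of GRCm38. The gene models around it in the deposited table had less negative fold changes than Slc36a2 in the knockdown and overexpression comparisons. Of 10 gene models lying within 250 kb, 7 were tested, and for knockdown without LPS their log2 fold changes ran from -0.56 to 0.24, with a median of 0.05 against -0.02 over all gene models tested. For overexpression they ran from -0.58 to 0.18, with a median of 0.04 against 0.02. For knockdown under LPS the flanking values ran from -0.95 to 0.28, and with LPS they ran from -0.73 to 0.63 in control cells and from -0.30 to 0.44 in knockdown cells. Among them uc007iyu.1 stood at -0.58 for overexpression, -0.51 for knockdown without LPS and -0.95 ± 0.25 (SE) for knockdown under LPS. Around Ucp1, 3 of 7 gene models within 250 kb were tested, with log2 fold changes from -0.32 to 0.10 for knockdown without LPS and from -0.41 to -0.04 for overexpression.

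**Figure D5:**
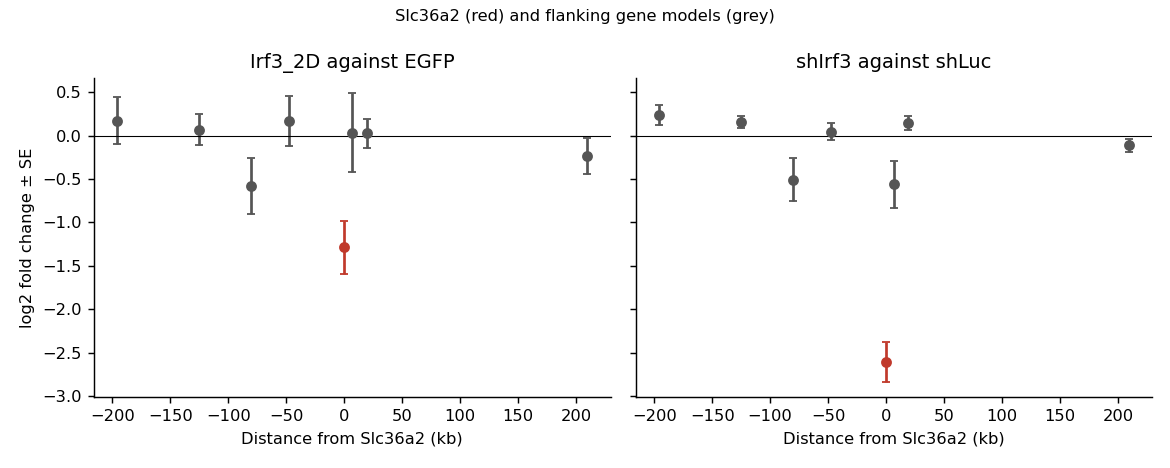
The log2 fold change and SE of Slc36a2 (red) and of the 7 tested gene models within 250 kb (grey), by distance from Slc36a2 in kilobases, for overexpression (left) and knockdown without LPS (right). Slc36a2 lies at -1.28 and -2.61, and the flanking gene models lie between -0.58 and 0.24.

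The gene models whose level followed Slc36a2 most closely were ranked by Pearson's correlation of log2 CPM over the 18 libraries, among 12579 gene models with a mean of at least 1 CPM. The libraries share depth and group structure, so the values are descriptive. The first was uc008ueu.1 (chr4:115146395-115171681, 16 exons), with r = 0.918 over 18 libraries, 0.941 over the 12 of the knockdown arm and 0.799 over the 6 of the overexpression arm. Its mean was 8.35 ± 2.42 CPM in shLuc and 2.96 ± 0.308 CPM in shIrf3 (SD, n = 3), and 6.88 ± 2.46 CPM in EGFP against 3.49 ± 0.137 CPM in Irf3_2D. This gene model has exons on either strand and may collect reads from more than one gene. The second was uc008hpn.1 (chr19:44277778-44318506, 7 exons), with r = 0.892 over 18 libraries. Its mean was 25.7 ± 1.41 CPM in shLuc and 5.14 ± 1.56 CPM in shIrf3, and 14.8 ± 2.45 CPM in EGFP against 9.53 ± 0.390 CPM in Irf3_2D. With LPS it differed from Slc36a2, at 18.9 ± 0.805 CPM in shLuc with LPS, below shLuc, and 7.25 ± 0.622 CPM in shIrf3 with LPS. No such ranking is given for Ucp1, whose values are at the floor in all libraries.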

How the data were processed

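RNA sequencing libraries were made from 70 ng of total RNA after ribosomal RNA removal with a kit that does not mark strand, per the labels' protocols. Build mm9 is named in the submitters' processing notes, which also list featureCounts 1.4.6 and TopHat2 2.0.14, with bcl2fastq 2.17.1.14, SAMtools 0.1.19, Picard 2.2.4 and edgeR. No settings are given there. The authors deposited unnormalized whole-number counts of reads for each gene model, with exon lengths per the file headers. Of the identifiers, 0 matched the name tables, so the preset list of brown and beige genes and the cell type markers were not used.

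Counts were tested with edgeR 4.0.16 (quasi-likelihood F test, robust) in R 4.3.3 after filterByExpr and TMM scaling. Benjamini-Hochberg adjusted p-values under 0.05, over the whole table tested, were called. For overexpression 6 libraries were fitted (13931 gene models) and for the knockdown arm 12 (14970 gene models, 4 groups). SE was obtained by dividing the log2 fold change by the root of F. Levels use TMM factors over 18 libraries, and log2 CPM a prior count of 2. Total counts ran from 22143302 to 34368259. Replicate pairs differed beyond sampling noise (chi-square per degree of freedom from 3.38). The edgeR step was tested on simulated data. The 2 members are always named, and the 2 gene models most alike in pattern by correlation. Members, lists and tests were chosen with earlier results of these data known. Alternatives were DESeq2 1.42.0, RLE factors, library totals, no low-count filter, a replicate block, other sets of libraries and each library left out.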

Additional observations from a re-analysis of the deposited data

How the results depend on the processing

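Slc36a2 was lower for knockdown without LPS, and called, in all 19 alternatives run. The log2 fold changes ran from -2.62 to -2.59 over the 7 that changed the method or the libraries fitted together. Over the 12 that left out a library they ran from -2.94 to -2.34. Libraries with LPS do not enter this difference, so leaving out such a library could hardly move the value, which stayed at -2.61. For overexpression the log2 fold change was called with no low-count filter (-1.28, edgeR adjusted p = 0.0450), in DESeq2 (-1.30) and with all 18 libraries in one fit (-1.27, edgeR adjusted p = 0.00392); with a library left out it ran from -1.50 to -1.04 and was called in 1 of 6 cases. The cause was not tested. Leaving out libraries gave -3.07 to -2.83 for knockdown under LPS, 0.23 to 0.44 for LPS in control cells, -0.26 to 0.34 for LPS in knockdown cells and -0.59 to 0.02 for the difference between the LPS effects. The sign of the last changed without shIrf3 replicate 2 (0.02), and that of LPS in knockdown cells without shIrf3 replicate 3 (-0.26), without shIrf3_LPS replicate 3 (-0.13) and with all 18 libraries in one fit (-0.03). No alternative was run for Ucp1, because no group passed 3 counts and no fold is given at or under that floor. The number of gene models called for overexpression was 202, against 473 in DESeq2, 942 with all 18 libraries and 5 to 1021 with a library left out. For knockdown it was 1281, against 386 with all 18 libraries, 436 from the 6 libraries compared and 510 to 2744 with a library left out. Deviations of same-numbered replicates correlated from -0.26 to 0.30, not over 0.1 in every pair of any comparison, and were not taken as pairs. With the replicate block Slc36a2 stood at -1.31 for overexpression (edgeR adjusted p = 0.104) and -2.62 for knockdown, and 236 and 1392 gene models were called.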
